A study of Homo sapiens with 6 samples.

Results

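The EGR, NR4A and IER immediate early genes and SRF were described in KHOS and U-2OS, a pair of established human osteosarcoma cell lines. KHOS was derived from the HOS line with Kirsten sarcoma virus, whose oncogene is a viral RAS, and U-2OS comes from another tumour. Each line had 1 Affymetrix U133 Plus 2.0 array from cells given the miR-1 vector (miRSelect pEP-miR-1), 1 from cells given the empty miR-null vector (pEP-miR-Null) and 1 labelled control, 6 arrays in all. The vectors went in with a lipid reagent for 48 hours, and each array held RNA pooled from 3 flasks. Control samples carry no vector name in their labels, which do not say whether their cells met the lipid reagent. The members were the probe sets that the array annotation gives to EGR1, EGR2, EGR3, EGR4, NR4A1, NR4A2, NR4A3, IER2, IER3 or SRF alone. This gave 20 of the 41091 probe sets with 1 gene symbol, from 9 of the 10 genes, and EGR2 was not analysed here.

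Immediate early genes are transcribed within minutes of a growth factor, stress or calcium signal, from transcription factors that are already in the cell. SRF is one of these factors: it binds the CArG box of promoters, together with ternary complex factors that ERK phosphorylates or with actin-regulated MRTF coactivators. EGR proteins are zinc finger transcription factors, several of which are held back by NAB corepressors. NR4A proteins are orphan nuclear receptors that act without a known natural ligand, and IER2 and IER3 are small proteins of the same early wave. In bone-forming cells EGR and NR4A genes are classic early responses to parathyroid hormone and mechanical load.

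The sequences below show what the miR-1 vector was made to supply and matches to promoter motifs that SRF and CREB are known to bind. They are from RefSeq with the GRCh38.p14 build. The mature miR-1-3p sequence (plus strand, chr20:62554351-62554372) has its seed, bases 2 to 8, in capitals.

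hsa-miR-1-3p: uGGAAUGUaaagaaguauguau

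Promoter windows of 300 bases, 250 before and 50 after an annotated start, were held for 6 of the 9 measured members, with 8 windows in all. The 4 shown are those of EGR1, whose signal differed most with a vector, of SRF, of IER2 and of NR4A3. They lie at chr5:138465229-138465528, chr6:43171019-43171318, chr19:13150161-13150460 and chr9:99821635-99821934, all on the plus strand. Capitals mark the CArG box and the cAMP response element core TGACG on either strand, which reads CGTCA on the other.

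EGR1: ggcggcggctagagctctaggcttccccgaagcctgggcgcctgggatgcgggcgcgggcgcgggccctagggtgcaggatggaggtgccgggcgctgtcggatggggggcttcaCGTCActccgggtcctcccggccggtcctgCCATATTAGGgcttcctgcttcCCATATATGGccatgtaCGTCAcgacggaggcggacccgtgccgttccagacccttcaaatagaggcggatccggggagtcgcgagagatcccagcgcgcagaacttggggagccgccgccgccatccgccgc

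SRF: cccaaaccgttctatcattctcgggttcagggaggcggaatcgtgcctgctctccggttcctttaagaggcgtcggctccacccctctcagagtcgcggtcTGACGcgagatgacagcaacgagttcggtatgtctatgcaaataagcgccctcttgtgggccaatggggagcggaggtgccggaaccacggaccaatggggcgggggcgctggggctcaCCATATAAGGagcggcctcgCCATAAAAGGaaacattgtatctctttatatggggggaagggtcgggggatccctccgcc

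IER2: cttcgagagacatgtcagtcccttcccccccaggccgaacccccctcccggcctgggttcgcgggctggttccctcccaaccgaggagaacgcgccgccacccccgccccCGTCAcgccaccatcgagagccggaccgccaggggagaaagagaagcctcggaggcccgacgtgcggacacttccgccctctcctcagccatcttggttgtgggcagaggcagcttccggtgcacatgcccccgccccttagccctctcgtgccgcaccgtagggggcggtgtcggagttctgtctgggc

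NR4A3: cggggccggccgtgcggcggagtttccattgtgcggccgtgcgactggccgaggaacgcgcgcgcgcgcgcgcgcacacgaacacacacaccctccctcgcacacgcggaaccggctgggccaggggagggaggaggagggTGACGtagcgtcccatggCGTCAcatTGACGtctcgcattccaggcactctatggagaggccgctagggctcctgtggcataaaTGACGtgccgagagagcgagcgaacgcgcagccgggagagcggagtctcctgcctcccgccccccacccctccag

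CArG boxes were in 2 of the 8 windows, those of EGR1 and SRF shown above, against 1.29% of all 35116 windows. Each of these held 2 boxes, which in EGR1 began at positions -105 and -83 relative to the start. The core was in 5 of the 8 windows and in 24.6% of all. The 5 were those of EGR1, EGR4, IER2 and NR4A3 and the SRF window shown. The NR4A3 window held 4 cores. The full element TGACGTCA, which contains the core on both strands, was in 0 of the 8 windows and 1.85% of all. An EGR site (GCGTGGGCG) was in 0 and 0.795%, and the NR4A response element AAAGGTCA in 0 and 1.22%. A match describes letters in a window and not a bound site.

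The authors deposited log2 RMA values, which are used throughout, and a difference of 1 is 2-fold. Array medians lay between 4.98 and 5.15. The lines carried mesenchymal transcripts, with VIM at 13.15 to 14.30 and SPARC, a bone matrix protein, at 10.64 to 12.06, and 4 of the 7 measured mesenchymal and osteoblast markers reached the median level of all probe sets, 5.11. ALPL, SP7 and COL1A2 stayed under it on every array. Of the markers of other cell types, 3 of 5 epithelial (EPCAM, KRT8 and KRT18), 1 of 3 measured blood (CD3E) and 1 of 4 endothelial genes (PECAM1) reached it, while the leukocyte marker PTPRC was at 3.53 to 3.75.

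The 9 genes spanned the range of the array. EGR1, IER2 and IER3 gave strong signals, from 10.65 to 13.53 on their brightest probe sets, whereas 7 of the 20 probe sets averaged under 5.11. These 7 were all 3 of NR4A2, 2 of EGR4 and 2 of NR4A3. A gene was tested through its probe set with the highest mean, so 8 of the 9 genes were tested and NR4A2 was not. EGR3 passed this level only through KHOS, since its U-2OS arrays read 4.05 to 4.73.

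**Figure D1:**
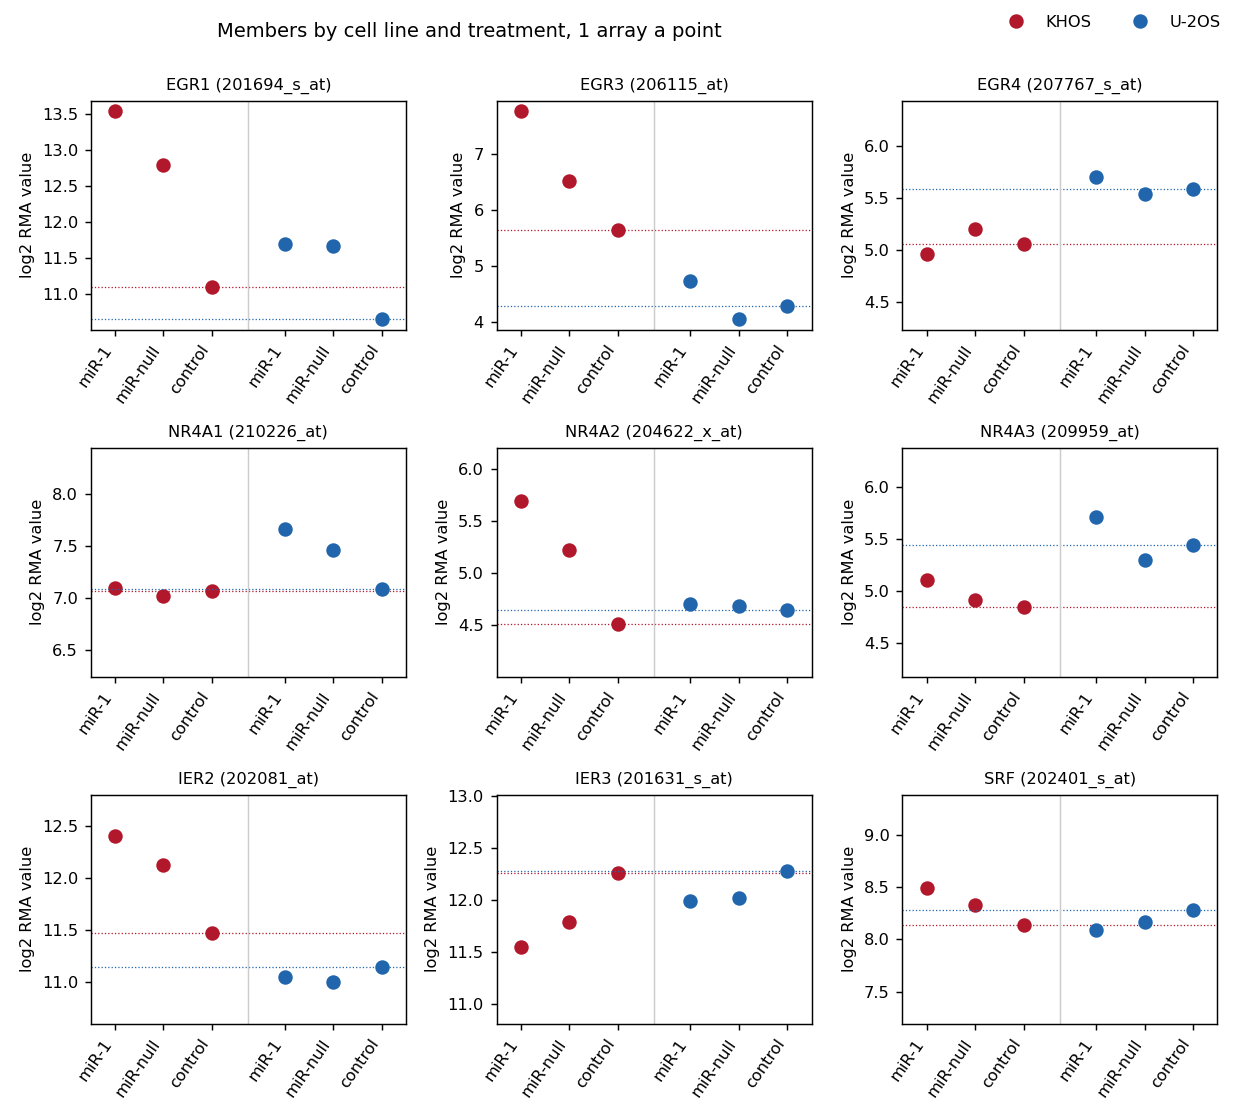
Log2 RMA value (vertical axis) of the brightest probe set of each of the 9 measured genes on the 6 arrays, grouped by treatment within KHOS (left, red) and U-2OS (right, blue). Each point is 1 array, and a dotted line marks the control array of a line. EGR1 lay above its control line on all 4 vector arrays and IER3 below it on all 4.

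Both vectors were set together against control, to show what went with a vector transfection whatever its insert. EGR1 had the largest difference of the members, higher on both vector arrays of both lines, and IER3 was the only tested member lower on all of them. EGR3 and IER2 were higher with a vector on the KHOS arrays, and their U-2OS values lay near control. The other tested members had 0.23 or less in the joint fit. In limma over all 6 arrays, with treatment and cell line as additive terms, 0 of the 8 members passed a Benjamini-Hochberg adjusted p of 0.05. Of all 12958 genes 3 passed, 0.0232%, namely DDIT3, PPP1R15A and TSLP, named after their values were seen, and 2006 had an unadjusted p under 0.05. The median change of the 8 members was 0.17, against -0.03 over all genes, with 7 of 8 positive against 45.7%.

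EGR1 read 13.53 with miR-1 and 12.78 with miR-null in KHOS, against 11.10 in control. In U-2OS it read 11.70 and 11.67, against 10.65. All 4 vector values were above both control values. The joint change was 1.54 ± 0.28 (log2, SE), or 2.91-fold, with an adjusted p of 0.151. It passed with a mean-dependent prior variance (adjusted p = 0.032). It also passed when the miR-1 array of U-2OS was left out (1.81, 0.031). Leaving out 1 control array turns the fit into the change of the other line against its 1 control, and these fits gave 1.03 for U-2OS (0.0094) and 2.06 for KHOS (1.44e-04). The adjusted p ran up to 0.9998 over the alternatives, that extreme being the fit without the cell line term.

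Within a line, in a fit chosen after seeing the data with the spread taken between the 2 vector arrays of each line, EGR1 was higher in KHOS by 2.06 ± 0.28 (SE), or 4.16-fold, with an adjusted limma p of 0.0075. The same fit gave 1.03 ± 0.28 (SE), or 2.04-fold, in U-2OS, with an adjusted limma p of 0.042. Each rests on 2 vector arrays and 1 control array, which is assumed to vary as the vector arrays do, so the p holds no spread between controls. When every probe set was fitted with no level filter, the U-2OS value missed the threshold (adjusted p = 0.064) and the KHOS one passed (0.012). EGR1 was 1 of the 520 genes called in KHOS (4.01%) and 1 of 1931 in U-2OS (14.9%), and it was the only one of the 8 tested members called in either. With every probe set fitted, 1.37% of all were called in KHOS and 6.05% in U-2OS. Among the 12958 genes its change ranked 41 from the highest in KHOS and 112 in U-2OS.

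The other EGR1 probe sets gave vector changes of 2.69 and 1.83 in KHOS, with 1.12 and 1.25 in U-2OS. All 3 were thus higher with a vector in both lines, and in the fit of every probe set 3 passed in KHOS and 1 in U-2OS. Several array controls were higher with a vector too. Hybridization spike-ins averaged 9.93 on the KHOS miR-1 array and 10.13 on the miR-null array, against 9.76 in control, and 11.65 and 11.33 in U-2OS, against 10.81. The mean of the large ribosomal RNA probe sets was 10.96 and 10.75 in KHOS, against 10.39, and 11.68 and 11.47 in U-2OS, against 10.70. The 3′ minus 5′ signal of actin, a sign of RNA quality, was likewise above control on all 4 vector arrays, with 2.89 on the KHOS miR-null array, against 2.68, and 2.49 and 2.64 in U-2OS, against 2.40. For GAPDH the same difference was below control on the KHOS miR-1 array, 0.53 against 0.55, and above control on the other vector arrays. The part of these array measures in the EGR1 result was not tested.

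**Figure D2:**
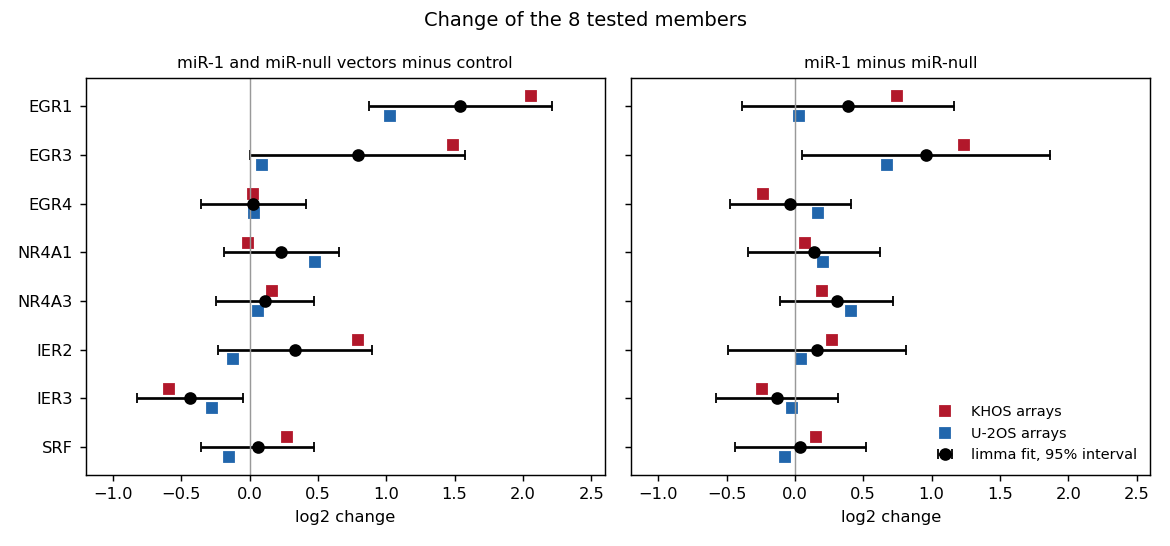
Log2 change of the 8 tested members for both vectors minus control (left panel) and miR-1 minus miR-null (right panel). Black points are the limma fit over 6 arrays with its 95% interval, red squares the KHOS arrays and blue squares the U-2OS arrays, and the EGR1 interval on the left runs from 0.87 to 2.21.

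EGR3, a zinc finger factor close to EGR1, read 7.76 with miR-1 and 6.52 with miR-null in KHOS, against 5.65 in control. Its U-2OS values were 4.73 and 4.05, against 4.30, so the vector arrays lay on both sides of control there. The joint change was 0.79 ± 0.33 (SE) with an adjusted limma p of 0.320. The KHOS change was 1.49 ± 0.45 (SE) with an adjusted p of 0.118 within that line. The fit without the U-2OS control, which gives that same KHOS value on 1 control array, passed (adjusted p = 0.00105). EGR4, known mainly from nervous tissue and testis, stayed between 4.96 and 5.70 on all arrays and had a joint change of 0.03 ± 0.16 (SE). Its dimmer probe sets, both under the level filter, gave -0.05 and 0.20 in KHOS, with 0.37 and 0.50 in U-2OS.

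IER2, a nuclear protein of the early response, read 12.41 and 12.13 on the KHOS miR-1 and miR-null arrays, against 11.48 in control. In U-2OS it read 11.05 and 11.00, against 11.15. The KHOS change of 0.79 ± 0.18 (SE) had an adjusted limma p of 0.052 within that line, and the joint change of 0.33 ± 0.23 one of 0.530. The U-2OS change was -0.12. The fit without the U-2OS control, which gives the KHOS change on 1 control array, passed (adjusted p = 0.032).

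IER3, known as IEX-1, a modulator of ERK signalling and cell survival, went the other way. It read 11.54 with miR-1 and 11.78 with miR-null in KHOS, against 12.26 in control, and 11.99 and 12.02 in U-2OS, against 12.28. None of the 4 vector values reached either control value. The joint change was -0.43 ± 0.16 (SE) with an adjusted limma p of 0.281, and no alternative brought it past the threshold.

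NR4A1, the receptor Nur77, read 7.10 and 7.02 with the vectors in KHOS, against 7.07 in control, and 7.67 and 7.46 in U-2OS, against 7.09. Its joint change was 0.23 ± 0.17 (SE) with an adjusted limma p of 0.557. The U-2OS difference was 0.48, 0.76 and 0.26 on its 3 probe sets and the KHOS difference -0.01, 0.07 and 0.02, so the line with the larger value was U-2OS on each. NR4A3, the receptor NOR1, had a joint change of 0.11 ± 0.15 (SE).

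NR4A2, the receptor Nurr1, read 5.70 and 5.22 on the KHOS miR-1 and miR-null arrays, against 4.51 in control. In U-2OS it read 4.70 and 4.68, against 4.64. Its other probe sets were higher with a vector in KHOS too, by 0.68 and 1.28, and by 0.43 and 0.18 in U-2OS. In the fit of every probe set the KHOS change of 1.28 passed (limma adjusted p = 0.025, 1 control array) and the 0.95 of the brightest did not (0.090). All these signals lie near the floor of the scale, where RMA shrinks differences.

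SRF, the factor upstream of many of these promoters, read 8.49 and 8.34 in KHOS, against 8.14, and 8.09 and 8.17 in U-2OS, against 8.28. The joint change was 0.06 ± 0.17 (SE, limma adjusted p = 0.893), with a 95% interval from -0.35 to 0.47. The second SRF probe set, also above the level filter, gave vector changes of 0.0004 in KHOS and 0.19 in U-2OS. The SRF window held CArG boxes as that of EGR1 did, and the joint change was 0.06 for SRF and 1.54 for EGR1. Whether the boxes bear on either value was not tested.

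By 1.2-fold, the minimum that the design text names, 4 of the 8 members were higher with a vector in KHOS, against 20.1% of all genes. These were EGR1, EGR3, IER2 and SRF, the last at 1.21-fold on its brightest probe set alone. IER3 was lower, against 15.9%. In U-2OS 2 members were higher (EGR1 and NR4A1) against 18.9%, and IER3 was lower against 35.5%. Each of these shares compares the mean of 2 vector arrays with 1 control array.

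**Figure D3:**
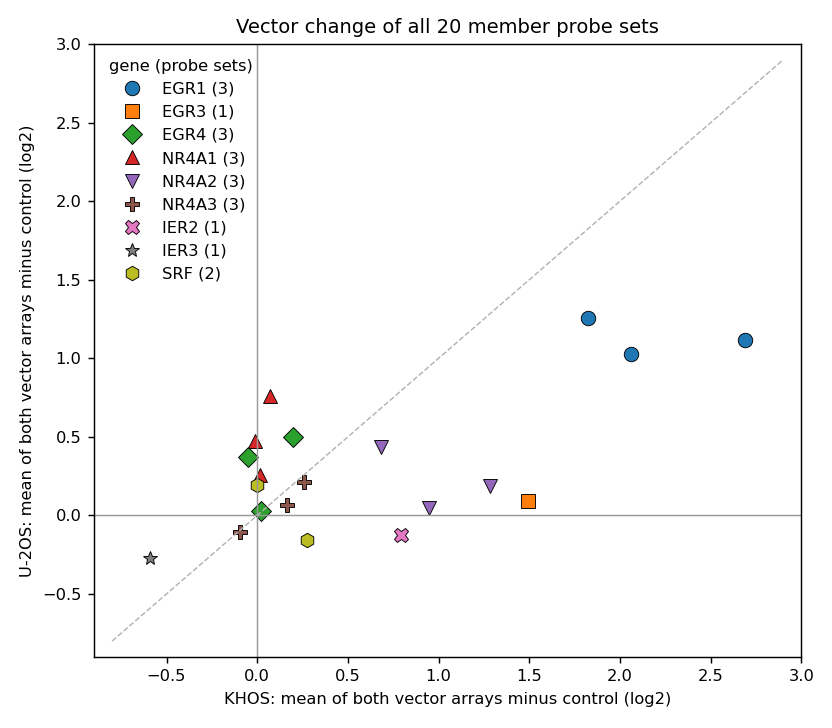
Mean of both vector arrays minus control (log2) in KHOS (horizontal axis) and U-2OS (vertical axis) for all 20 member probe sets, with a symbol for each gene and its number of probe sets in the legend. The dashed line marks equal change, and the 3 EGR1 points lie at 1.83 to 2.69 in KHOS and 1.03 to 1.25 in U-2OS.

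Whether the vector change differed between the lines was tested as an interaction, KHOS change minus U-2OS change. The spread came from the miR-1 and miR-null arrays of each line, so it also holds any difference between these vectors. None of the 8 members passed, against 296 of 12958 genes, or 2.28%. The members with the largest differences were EGR3 at 1.40 ± 0.64 (SE, limma adjusted p = 0.242), EGR1 at 1.03 ± 0.39 (0.173) and IER2 at 0.91 ± 0.26 (0.095). NR4A1 had -0.49 ± 0.24 (0.280). EGR1 and IER2 passed with the mean-dependent prior variance, at 0.040 and 0.0080. The larger value in KHOS was seen for 5 of the 8 members, and 62.3% of all genes had a positive difference.

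To ask which transcripts respond to the microRNA, miR-1 arrays were set against miR-null arrays. EGR3 was higher with miR-1 in both lines, EGR1 and IER2 past 1.2-fold in KHOS alone and NR4A3 in U-2OS alone. In limma 0 of the 8 members and 0 of 12958 genes (0%) passed, and 78 genes had an unadjusted p under 0.05. The members' median was 0.15, against -0.04 over all genes, with 6 of 8 positive against 38.1%.

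EGR3 had the largest value, 1.24 in KHOS and 0.68 in U-2OS, which ranked 11 and 132 from the highest among 12958 genes. Its fitted change was 0.96 ± 0.38 (SE), or 1.94-fold, with an unadjusted limma p of 0.042 and an adjusted limma p of 0.9999. The limma alternatives gave adjusted p-values from 0.487 up, and without the KHOS miR-1 array the value was 0.40. In U-2OS both values lie below the level filter. EGR1 had 0.75 in KHOS and 0.03 in U-2OS, with a fitted 0.39 ± 0.32 (SE). Its value turned to -0.14 without the KHOS miR-1 array.

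NR4A3 had 0.20 and 0.41, with a fitted 0.30 ± 0.17 (SE), but its dimmer probe sets gave 0.05 and 0.22 in KHOS, with -0.10 and -0.02 in U-2OS. IER2 was at 0.27 and 0.05, NR4A1 at 0.07 and 0.20, SRF at 0.16 and -0.08, EGR4 at -0.24 and 0.17, and IER3 at -0.24 and -0.02. NR4A1 probe sets disagreed in KHOS, where the dimmer 2 gave -0.44 and -0.25. By 1.2-fold 3 members were higher with miR-1 in KHOS (EGR1, EGR3 and IER2) against 7.39% of all genes and 0 lower against 11.8%. In U-2OS 2 were higher (EGR3 and NR4A3) against 11.8%, and 0 lower against 19.2%.

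Levels also differed between the lines over the 3 treatments. In the additive fit 5 of the 8 members passed, near the 54.8% of all genes that did. EGR3 was higher in KHOS by 2.28 ± 0.31 (log2, SE, limma adjusted p = 0.0014), a member that was tested only because of its KHOS level. EGR1 was higher by 1.13 ± 0.26 (0.012) and IER2 by 0.94 ± 0.22 (0.013). In the fit of every probe set the dimmer EGR1 sets gave 0.43 (limma adjusted p = 0.087) and 1.25 (0.027), so they disagreed on the threshold. EGR4 and NR4A3 were lower in KHOS, by -0.53 ± 0.15 (0.024) and -0.53 ± 0.14 (0.020), and both calls were lost when any 1 of the 4 vector arrays was left out. Their KHOS values, 4.96 to 5.20 for EGR4 and 4.84 to 5.11 for NR4A3, averaged under the level filter, so these genes too were tested only because of the line where they are higher. With no level filter EGR3, EGR4 and NR4A3 passed as well, on the same probe sets. The dimmer EGR4 sets gave -0.38 and -0.40 and the dimmer NR4A3 sets -0.04 and -0.22. None of these passed in the fit of every probe set (limma adjusted p from 0.080 to 0.813).

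NR4A1 (-0.34), IER3 (-0.23) and SRF (0.14) did not pass. After quantile normalization, which shifted the median of all genes by -0.17, NR4A1 passed at -0.65 (adjusted p = 0.039) and SRF was at -0.21. NR4A1 passed at -0.51 (0.0125) when the control of either line was left out. The dimmer NR4A1 probe sets gave -1.06 and -0.83, both past the threshold in the fit of every probe set, as were 31.5% of all. The line difference of EGR1 was 1.84 on the miR-1 arrays and 1.11 on the miR-null arrays, against 0.45 on the control arrays. For IER2 it was 1.36 and 1.13, against 0.33, and for EGR3 3.03 and 2.47, against 1.35. For these 3 genes the lines were closest in control.

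The rest of the pathway was read from lists chosen with earlier results of these data known. Of 24 other immediate early genes tested 0 passed for a vector against control, yet 21 were positive, against 45.7% of all genes. Their median was 0.74, against -0.03 over all genes. FOS, the AP-1 subunit, had 3.08 ± 0.57 (SE), with 11.51 and 9.58 in KHOS, against 6.38, and 8.54 and 8.59 in U-2OS, against 6.57. ATF3, a stress-induced repressor, had 2.83 ± 0.24 (limma adjusted p = 0.0504). In the line difference 3 of the 24 passed, against 2.28% of all genes. The transcription factors MYC, a driver of cell growth (1.54 ± 0.31, SE), and KLF4 (1.58 ± 0.25) had the more positive vector change in KHOS. KLF2, a zinc finger factor of the same family as KLF4, had the more negative one there (-1.19 ± 0.23).

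**Figure D4:**
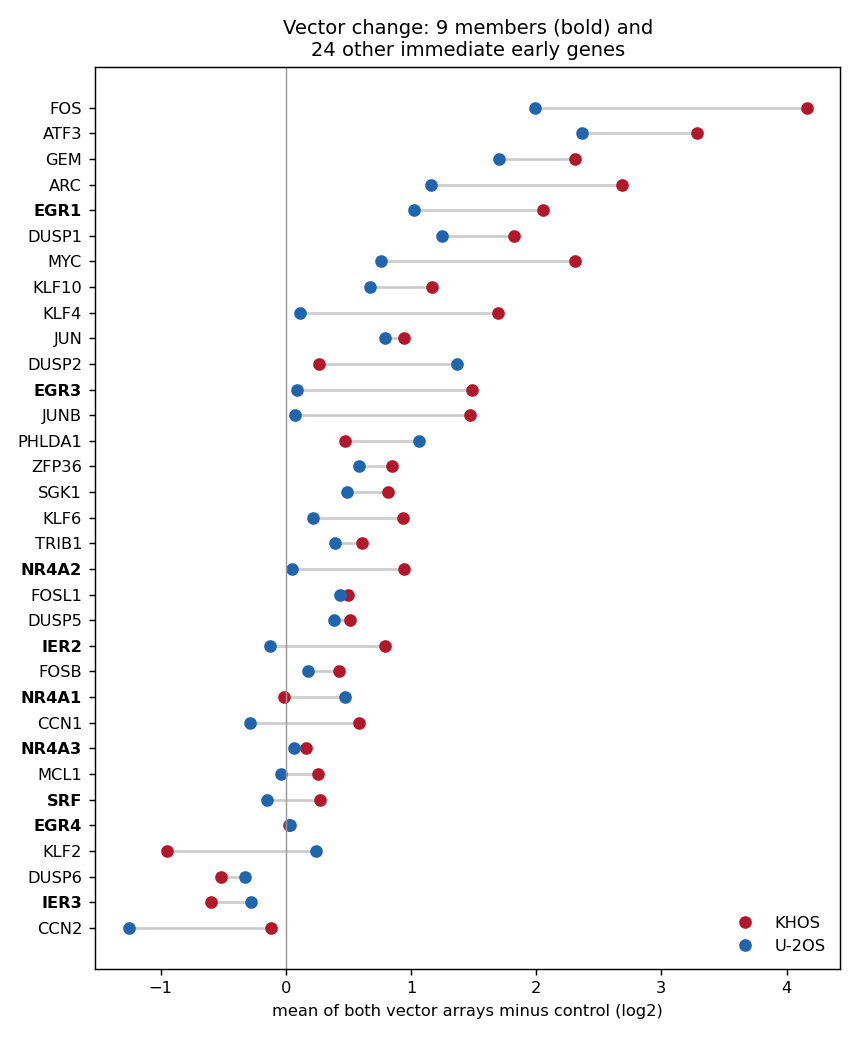
Mean of both vector arrays minus control (log2, horizontal axis) in KHOS (red) and U-2OS (blue) for the 9 measured members (bold names) and 24 other immediate early genes, ordered by the mean of both lines. EGR1 stands with FOS, ATF3, GEM and ARC at the top, and IER3 with DUSP6 and CCN2 at the bottom.

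Upstream of SRF, 0 of 5 cofactors tested passed for a vector, 2 of them positive, against 45.7% of all genes. MRTFB, a coactivator, had -0.83 ± 0.24 (SE) and ELK4, a ternary complex factor, -0.40 ± 0.22. By line MRTFB had -0.35 in KHOS and -1.30 in U-2OS, and ELK4 had 0.01 and -0.80. None of 9 ERK, stress kinase and CREB genes passed, 6 of them positive. The kinase gene RPS6KA1 had -0.45 ± 0.15 (SE) and MAPK8, the JNK1 gene, 0.37 ± 0.15.

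Downstream, 0 of 7 EGR corepressors and targets passed, with 4 positive, against 45.7% of all genes. CDKN1A, the p21 cell cycle inhibitor, had 0.66 ± 0.18 (SE). The corepressor NAB1 had -0.46 ± 0.20. Of 10 cytoskeletal targets of SRF and MRTF 0 passed and 2 were positive, against that 45.7%. The other 8 were negative, led by the tropomyosin TPM1 (-0.69 ± 0.20, SE) and VCL, vinculin (-0.60 ± 0.18). The NR4A partner receptors RXRA and RXRB had -0.29 and -0.00, and IER5 and IER5L had 0.76 ± 0.22 (SE) and -0.37 ± 0.19, with none passing.

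Genes whose values were most like a member were found by distance over the 4 changes from control, miR-1 and miR-null in each line, among the 12958 genes. For EGR1 these were SLC30A1, a zinc exporter (distance 0.30), GADD45A, a growth arrest gene (0.39), CITED2, a CBP/p300-binding regulator (0.40), and SNAPC1, a subunit of the snRNA activating complex (0.46). In KHOS SLC30A1 had 2.17 with miR-1 and 1.81 with miR-null, against 2.43 and 1.68 for EGR1. For IER3 they were TM4SF1, TBC1D1, LSM2 and CDK2, at distances of 0.05 to 0.14. For NR4A1 they were DTX2P1-UPK3BP1-PMS2P11, DMWD, TMEM277P and PPP1R3E, at 0.07 to 0.08. Small distances are easier to reach for genes with small changes.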

How the data were processed

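Gene expression was measured on 6 Affymetrix U133 Plus 2.0 arrays, 1 for each line and treatment, grouped by the sample titles. The authors deposited log2 values, which the series' design text says are RMA values from Qlucore 3.2. RMA is named in the submitters' processing notes too. The values ran from 2.83 to 14.90 and were used as deposited. A probe annotation named 41091 of 54675 probe sets with 1 gene, 1801 with several and 11721 with none. Each of 19775 genes was represented by its probe set with the highest mean, and 12958 genes with a mean at or above the median probe set were tested.

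Differences were tested across all genes with limma 3.58.1 in R 4.3.3 (lmFit, eBayes), with treatment and cell line as additive terms and 2 residual degrees of freedom. The line difference in the vector change was fitted with a group for each line with and without a vector. The cell line term pairs the arrays of a line. P-values measure the spread between pooled arrays, not cultures, and the number of arrays limits the precision. In the additive fit that spread also holds any line difference in response. In the fit by line and vector it holds any difference between miR-1 and miR-null, which stand there as replicates. The scripts were checked on simulated data. All member probe sets were described. For other lists the 2 genes with the largest vector change were named, and any that passed in the line difference in the vector change. List genes that passed between the lines were not named. The members and lists were chosen with earlier results of these data known. Alternatives were quantile normalization, other level filters, a mean-dependent prior variance, every probe set, other groupings, the design text's Mann-Whitney test and leaving out each array.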

Additional observations from a re-analysis of the deposited data

Results flagged for a closer look

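IER2 and SRF moved in opposite directions in the lines: both vector arrays lay above control in KHOS and below control in U-2OS. The difference between the lines in the vector change was 0.91 for IER2 and 0.43 for SRF (log2). The interaction test gave adjusted limma p-values of 0.095 and 0.325, so neither passed. After quantile normalization the differences were 0.78 and 0.10. SRF's second probe set gave -0.19. No group held enough arrays for an outlier to be sought.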

How the results depend on the processing

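Leaving aside the Mann-Whitney test, of 396 member values under an alternative, 348 kept their direction and side of the threshold, 14 newly passed, 8 no longer passed and 26 turned in sign, all of them in values that had not passed as reported. Under the alternatives run, limma called 0 genes in the miR-1 comparison each time. For the vector comparison, 3 genes were called as reported, 11 after quantile normalization, 19 with no level filter, 16 with the 75th percentile filter, 74 under a mean-dependent prior variance (50 higher and 24 lower, 1 member), 0 with no replicate block (no cell line term to pair the arrays) and 0 with the exact Mann-Whitney test. That test set the miR-1 arrays, or the vector arrays, against all others, and its smallest p was 0.0667, so it could call no gene and its 0 says nothing. Added after seeing the data, vector and control as the only levels called 62, KHOS alone 520 (1 member) and U-2OS alone 1931 (1 member). With every probe set and no level filter these were 747 in KHOS and 3302 in U-2OS, and 17205 for the lines. Counted by the brightest probe sets alone, 1 member was among them in KHOS and 0 in U-2OS. Dimmer probe sets of EGR1 and NR4A2 also passed in KHOS, and a dimmer EGR1 set passed in U-2OS. The line comparison called 4713 genes with the 75th percentile filter (2 members, since dim members drop out) and 14057 probe sets when each was tested. The line difference in the vector change called 15 genes after quantile normalization, 553 with the 75th percentile filter and 863 under the mean-dependent prior variance (2 members). Quantile normalization moved the median of all genes by -0.17 for the line comparison and by -0.20 for that difference.

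Leaving out 1 array at a time gave 10 to 2278 genes and 0 to 3 members for the vector comparison, 4471 to 8765 and 3 to 6 for the lines, and 6 to 1531 genes for the line difference. In the vector comparison the highest count, 2278, came without the KHOS control. The ranges of values that crossed 0 were, for miR-1, EGR1 -0.14 to 0.92, EGR4 -0.19 to 0.12, IER2 -0.15 to 0.47, IER3 -0.29 to 0.028, SRF -0.15 to 0.23 and NR4A1 -0.032 to 0.31. For a vector they were IER2 -0.12 to 0.79, SRF -0.15 to 0.27, EGR4 -0.050 to 0.10 and NR4A1 -0.011 to 0.48. For the line difference they were EGR4 -0.12 to 0.11 and NR4A3 -0.10 to 0.30. After quantile normalization EGR4 was 0.0015 for miR-1 and 0.012 for the line difference, and SRF -0.21 between lines. The vector change was -0.011 for NR4A1 in KHOS alone, and -0.12 for IER2 and -0.15 for SRF in U-2OS alone. The causes were not tested. With 1 array for each line and treatment precision is low: the SE of the members' vector changes ran from 0.15 (NR4A3) to 0.33 (EGR3). Without 1 control, the other line's control is the only one.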
